A study of Arabidopsis thaliana with 6 samples.

Results

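The 10 genes described here make, move or store iron ligands and iron in Arabidopsis thaliana: the nicotianamine synthase genes NAS1 to NAS4, the phloem transporter gene OPT3, the vacuolar transporter gene VIT1 and the ferritin genes FER1 to FER4. They were taken by their AGI locus codes from a table of 33602 genes, and all 10 were found. The genes were measured in whole seedlings of the Columbia (Col) ecotype after 12 days on agar with nitrogen-free basal salts at reduced strength and 0.5% sucrose. In 3 libraries the nitrogen source was 5 mM Glu, and in the other 3 it was 5 mM NH4NO3; genotype, tissue and age were shared by both groups. Since ammonium nitrate carries more nitrogen per mole than glutamate, the form of nitrogen and its amount cannot be told apart in this comparison. The labels do not say whether replicate libraries came from separate plates, so p-values measure the spread between these libraries, which may be technical.

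Nicotianamine is a small chelator of iron, zinc and copper that plants build from S-adenosylmethionine, and it keeps iron soluble as it moves between cells and along the veins. OPT3 loads iron into the phloem, from which it reaches young leaves, seeds and roots, and plants that lack OPT3 function show iron deficiency responses in their roots although their leaves hold iron. Ferritins are hollow shells of many subunits that hold iron in plastids in a form that does not react with oxygen, and Arabidopsis FER1 is induced by iron excess. VIT1 carries iron into the vacuoles of the developing embryo.

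The libraries held 49688724 to 63424574 reads in genes on glutamate and 49520237 to 51409315 on ammonium nitrate, recovered from the deposited values. Levels are RPKM, a read count divided by gene length and by library size, so levels of different genes can be set beside each other. The test was limma's moderated test on log2(RPKM + 1), with Benjamini-Hochberg adjustment over 20032 genes that had a mean of at least 1 RPKM and a threshold of 0.05. Of the genes tested, 71.8% passed it, 35.0% higher and 36.8% lower on glutamate, and in 76.1% the groups were fully separated. A call in a single gene is therefore common in this comparison, and the sizes below carry more information than the calls.

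On glutamate, NAS1 and the ferritin genes were lower, and NAS4 and OPT3 were higher, in every library. Of the 10 genes, 9 reached the level needed for the test and VIT1 did not. All 9 tested genes passed, 3 higher and 6 lower on glutamate, where 71.8% of all tested genes passed. For each of the 9, the 3 glutamate libraries lay wholly above or wholly below the 3 ammonium nitrate libraries, as they did for 76.1% of all tested genes, 36.9% higher and 39.2% lower on glutamate. The NAS genes did not move one way, since NAS2 and NAS4 rose and NAS1 and NAS3 fell, whereas all 4 ferritin genes fell. When all tested genes were ordered from the largest fall on the log2(RPKM + 1) scale, NAS1 was at place 12, FER4 at 203, FER1 at 295, FER3 at 385, NAS3 at 3123 and FER2 at 3698 of 20032. Ordered from the largest rise, NAS4 was at place 556, OPT3 at 615 and NAS2 at 3692.

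**Figure D1:**
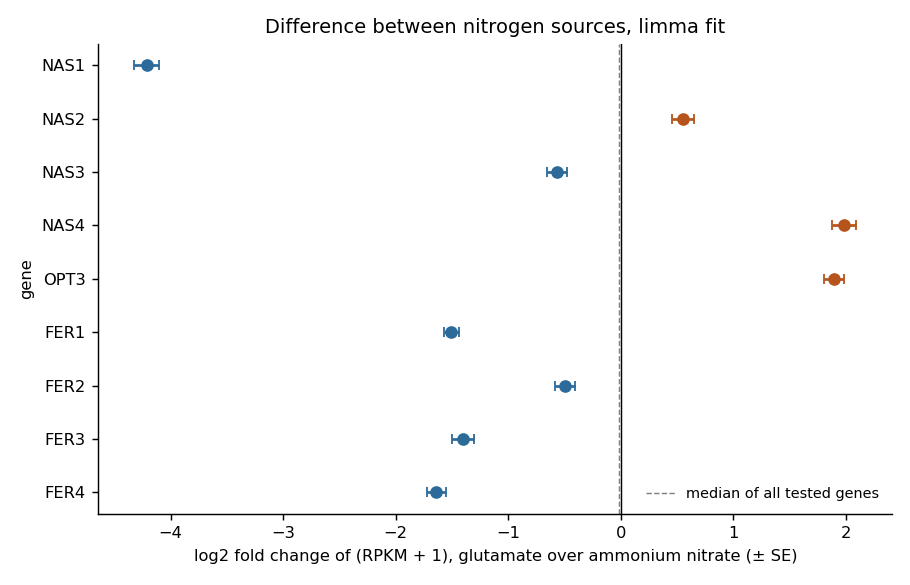
Log2 fold change of RPKM + 1, glutamate over ammonium nitrate, for the 9 tested genes, with the SE of the limma fit over 3 libraries per group as bars. Orange points rose and blue points fell; NAS1 lies at -4.21, NAS4 at 1.99 and OPT3 at 1.90, and the dashed line marks the median of all tested genes at -0.02.

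NAS1 (AT5G04950) had 1.30, 0.855 and 1.05 RPKM in the glutamate libraries, against 40.8, 32.5 and 39.0 RPKM in the ammonium nitrate libraries. Every glutamate value lay far below every ammonium nitrate value, and the glutamate values rest on 99, 55 and 86 reads, against 2511, 1916 and 2420 reads on ammonium nitrate. The mean level was 1.07 ± 0.223 RPKM on glutamate and 37.4 ± 4.40 RPKM on ammonium nitrate (SD, n = 3 each), or 35.0-fold lower on glutamate. The ratio was 31.8-fold to 39.2-fold when each library was left out in turn. The log2 fold change was -4.21 ± 0.11 (SE, limma adjusted p = 4.94e-08). It understates the fall because 1 RPKM is added before the logarithm, and with a pseudocount of 0.25 RPKM it was -4.84.

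NAS4 (AT1G56430) moved the other way. It had 19.8, 22.6 and 17.8 RPKM on glutamate, against 4.42, 3.70 and 4.84 RPKM on ammonium nitrate. The means were 20.1 ± 2.44 and 4.32 ± 0.577 RPKM on glutamate and ammonium nitrate (SD, n = 3 each), a ratio of 4.65 that stayed between 4.34 and 4.95 with any single library left out. The log2 fold change was 1.99 ± 0.11 (SE, limma adjusted p = 1.45e-06).

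NAS2 and NAS3 differed by less. NAS2 (AT5G56080) had 5.33, 5.89 and 4.85 RPKM on glutamate, against 2.89, 3.43 and 3.73 RPKM on ammonium nitrate, with a log2 fold change of 0.55 ± 0.10 (SE, limma adjusted p = 0.00116). NAS3 (AT1G09240) had 2.78, 3.31 and 3.56 RPKM on glutamate, against 5.53, 5.22 and 4.94 RPKM on ammonium nitrate, with a log2 fold change of -0.57 ± 0.09 (SE, limma adjusted p = 0.00055). As ratios of mean RPKM, NAS2 was 1.60-fold higher and NAS3 was 1.63-fold lower on glutamate.

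The order of the NAS levels was thus different on the 2 media. On glutamate NAS4 stood highest, followed by NAS2, NAS3 and NAS1, and no neighbours in that order overlapped. On ammonium nitrate NAS1 stood highest, followed by NAS3, NAS4 and NAS2, and the values of NAS4 and NAS2 overlapped. The ratio of NAS4 to NAS1 was 15.3, 26.5 and 16.9 in the glutamate libraries and 0.108, 0.114 and 0.124 in the ammonium nitrate libraries.

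**Figure D2:**
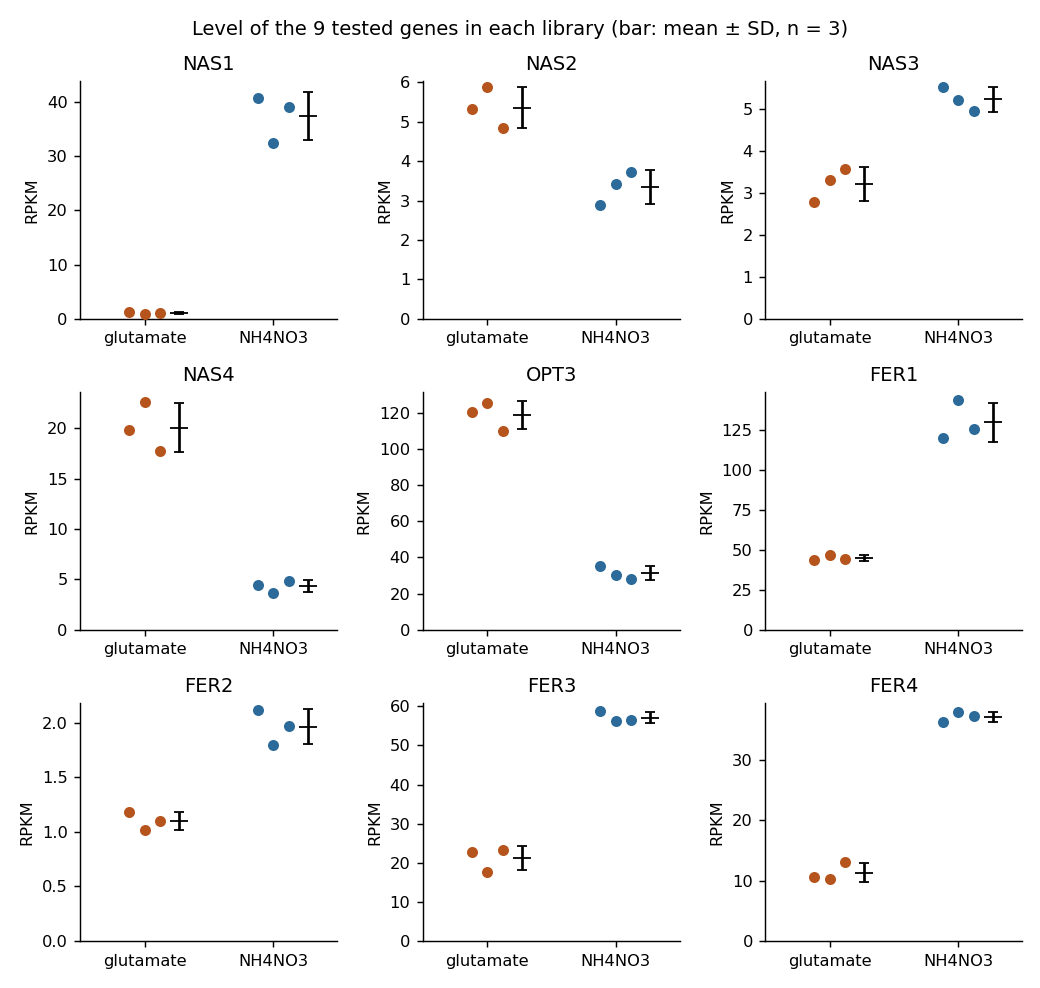
RPKM of the 9 tested genes in the 3 glutamate libraries (orange) and the 3 ammonium nitrate libraries (blue, labelled NH4NO3), each panel with its own linear axis from 0 and with mean ± SD beside the points. In no panel do the groups overlap; NAS1 lies between 0.855 and 1.30 RPKM on glutamate, and OPT3 between 109.98 and 125 RPKM.

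Summed over the 4 genes, NAS transcripts were at 29.7 ± 2.76 RPKM on glutamate and 50.3 ± 4.82 RPKM on ammonium nitrate (SD, n = 3 each), a ratio of 1.69-fold lower, given as a description with no test. The sum hid a change of composition. NAS1 made up 3.64% ± 0.936 of the summed RPKM on glutamate and 74.3% ± 1.82 on ammonium nitrate. NAS4 made up 67.4% ± 2.02 on glutamate and 8.56% ± 0.559 on ammonium nitrate, and NAS2 made up 18.0% ± 0.226 on glutamate and 6.71% ± 1.18 on ammonium nitrate (SD, n = 3 each). The share of NAS3 was close in both groups, at 10.9% ± 1.91 on glutamate and 10.5% ± 1.13 on ammonium nitrate.

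**Figure D3:**
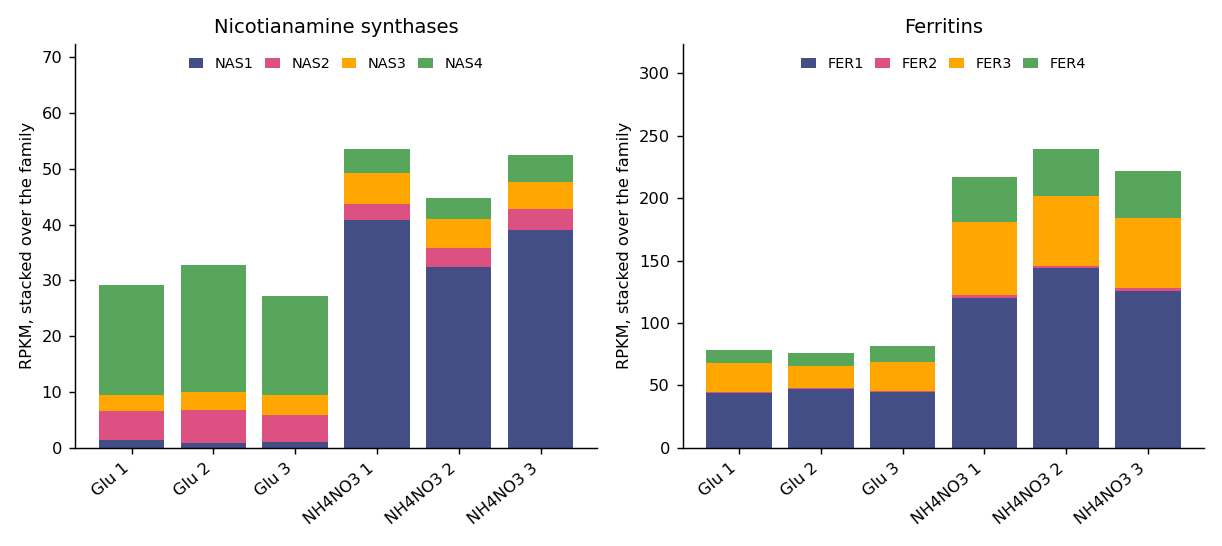
Stacked RPKM of the 4 NAS genes (left) and the 4 ferritin genes (right) in each library, with the glutamate libraries (Glu) to the left of the ammonium nitrate libraries (NH4NO3). The NAS columns are mostly NAS4 on glutamate (67.4%) and mostly NAS1 on ammonium nitrate (74.3%), while the ferritin columns are lower on glutamate, with FER1 at 57.4% on glutamate and 57.3% on ammonium nitrate.

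The NAS genes are close copies, so it was checked whether reads could have been assigned to the wrong copy. Each gene has its coding sequence in 1 exon in the TAIR10.1 annotation, of 963 bases in NAS1, NAS2 and NAS3 and 975 in NAS4. Aligned coding sequences were 84.7% identical between NAS1 and NAS2 and 80.1% between NAS3 and NAS4, and 69.2% to 71.8% between other pairs. The longest stretch that NAS1 and NAS2 share without a difference is 49 bases, and for NAS3 and NAS4 it is 32 bases. The deposited share of multiply mapped reads was 0 for all 10 genes. NAS1 and NAS2, the closest pair, went in opposite directions.

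The start of the coding sequence carries an element that also shows how near the copies are. TGTCGACA is the core of the zinc deficiency response element, the palindrome bound by the transcription factors bZIP19 and bZIP23, and NAS2 and NAS4 are known to rise under zinc deficiency. In the lines below, which show 18 bases before the start codon and 12 from it on, the core is in capitals. It runs into the start codon in NAS2, NAS3 and NAS4, and the NAS1 line has no match. Of 27443 nuclear protein-coding genes, 4 had the core joined to the start codon in this way, and 3 of those 4 were NAS genes. The positions, in TAIR10.1, are chr5:1458827-1458856 on the minus strand for NAS1, chr5:22712353-22712382 on the minus strand for NAS2, chr1:2984932-2984961 on the plus strand for NAS3 and chr1:21137005-21137034 on the plus strand for NAS4.
NAS1: taacctcatagtgtcgatatggcttgccaa
NAS2: tctcttcatagTGTCGACAtggcttgcgaa
NAS3: taacctcatagTGTCGACAtgggttgccaa
NAS4: aaacctcatagTGTCGACAtgggttattgc

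The same core also lies inside the coding sequence of NAS1, NAS2 and NAS4. The 48 bases from coding base 76 on are shown for each gene with the core in capitals, and NAS3 has no match there. In the order of the lines they lie at chr5:1458716-1458763 (minus), chr5:22712242-22712289 (minus), chr1:2985025-2985072 (plus) and chr1:21137098-21137145 (plus) in TAIR10.1.
NAS1: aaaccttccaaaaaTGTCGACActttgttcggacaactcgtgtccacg
NAS2: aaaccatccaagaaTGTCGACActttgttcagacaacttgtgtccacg
NAS3: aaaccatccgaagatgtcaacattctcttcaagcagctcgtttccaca
NAS4: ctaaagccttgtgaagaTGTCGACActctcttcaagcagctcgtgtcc
A match in these letters is a description of the sequence and is not evidence of binding. The coding stretch shown was picked by hand, and the core was not counted over the coding sequences of all genes. In the 300 bases before the coding start, 0.248% of the 27443 genes held the core on either strand, and none of the 10 genes did, since the matches above reach into the start codon or lie beyond it.

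OPT3 (AT4G16370) rose to the highest level among the 10 genes on glutamate. It had 121, 125 and 109.98 RPKM in the glutamate libraries, against 35.4, 30.1 and 28.1 RPKM in the ammonium nitrate libraries. The lowest glutamate value was more than 3-fold above the highest ammonium nitrate value. The means were 119 ± 7.83 and 31.2 ± 3.79 RPKM on glutamate and ammonium nitrate (SD, n = 3 each), a ratio of 3.80, with a log2 fold change of 1.90 ± 0.09 (SE, limma adjusted p = 6.77e-07). OPT3 is known to act in companion cells of the phloem. The summed level of 7 phloem markers was 193 to 219 RPKM on glutamate and 248 to 264 RPKM on ammonium nitrate, with 2 markers higher, 3 lower and 2 not passing. Of all tested genes 71.8% passed, 35.0% higher and 36.8% lower. Scaling all libraries to equal totals gave 3 markers higher and 2 lower, where 42.1% of all tested genes were higher and 29.9% lower. The direction of the sum rested on the most abundant marker, PP2-A1, at 93.9 RPKM on glutamate and 149.7 RPKM on ammonium nitrate. Without it, an alternative chosen after seeing the data, the other 6 summed to 105 to 118 RPKM on glutamate and 101 to 108 RPKM on ammonium nitrate, and the groups overlapped. The phloem sucrose loader SUC2 was at 51.6 RPKM on glutamate and 33.9 RPKM on ammonium nitrate; it and PP2-A1 were named after their values were seen. The part of the phloem markers in the OPT3 result was not tested.

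VIT1 (AT2G01770) had 0 reads in each of the 3 glutamate libraries and 2, 0 and 0 reads in ammonium nitrate libraries 1, 2 and 3. A count of 0 allows a level of up to 0.0592 to 0.0748 RPKM on glutamate and 0.0784 to 0.0823 RPKM on ammonium nitrate, taken as 3 reads per library and for counting error only. These limits treat each read as independent and would be higher if mates were counted separately. No difference was detectable at this depth, and no test was made. VIT1 and the seed ferritin FER2 are known from embryos and seeds. Of 6 seed and embryo markers, 3 to 5 had 0 reads in each library, the storage protein genes CRU3 and SESA1 among them in all 6. The summed level of the 6 markers was 0.886 to 1.00 RPKM on glutamate and 0.184 to 0.647 RPKM on ammonium nitrate. Most of it came from EM6, named after its values were seen. EM6 was at 0.860 RPKM on glutamate and 0.382 RPKM on ammonium nitrate, from 92 and 33 reads summed over each group.

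The 3 ferritin genes of vegetative tissue fell by similar factors. FER1 (AT5G01600) had 43.8, 46.9 and 44.4 RPKM on glutamate, against 119.9, 144 and 126 RPKM on ammonium nitrate. The means were 45.0 ± 1.66 and 129.8 ± 12.4 RPKM on glutamate and ammonium nitrate (SD, n = 3 each), 2.89-fold lower on glutamate, with a log2 fold change of -1.50 ± 0.07 (SE, limma adjusted p = 7.25e-07). No glutamate library reached the lowest ammonium nitrate library.

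FER3 (AT3G56090) had 22.6, 17.6 and 23.2 RPKM on glutamate, against 58.7, 56.2 and 56.4 RPKM on ammonium nitrate, and was 2.70-fold lower on glutamate, with a log2 fold change of -1.40 ± 0.10 (SE, limma adjusted p = 4.73e-06). FER4 (AT2G40300), whose product is also found in mitochondria, had 10.6, 10.2 and 13.2 RPKM on glutamate, against 36.3, 37.9 and 37.4 RPKM on ammonium nitrate. It was 3.28-fold lower on glutamate, with a log2 fold change of -1.64 ± 0.09 (SE, limma adjusted p = 1.35e-06). The ammonium nitrate libraries lay close together for FER3 and FER4, with coefficients of variation of 2.46% and 2.24%, whereas those of the glutamate libraries were 14.6% and 14.2%.

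FER2 (AT3G11050) was low in all libraries. It had 1.18, 1.02 and 1.10 RPKM on glutamate, against 2.12, 1.80 and 1.97 RPKM on ammonium nitrate, from 54 to 74 reads on glutamate and 87 to 107 reads on ammonium nitrate, and the groups did not overlap. It was 1.78-fold lower on glutamate, with a log2 fold change of -0.50 ± 0.09 (SE, limma adjusted p = 0.00117). The log2 value understates the fall of a gene this low, and with a pseudocount of 0.25 RPKM it was -0.71.

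In both groups FER1 stood highest, followed by FER3, FER4 and FER2, and no neighbours in that order overlapped. Summed over the 4 genes, ferritin transcripts were at 78.5 ± 3.06 RPKM on glutamate and 226 ± 11.9 RPKM on ammonium nitrate (SD, n = 3 each), 2.88-fold lower on glutamate and given with no test. Unlike the NAS family, the composition moved little. FER1 made up 57.4% ± 4.04 on glutamate and 57.3% ± 2.41 on ammonium nitrate, FER3 26.8% ± 3.15 on glutamate and 25.3% ± 1.81 on ammonium nitrate, and FER4 14.4% ± 1.49 on glutamate and 16.5% ± 0.564 on ammonium nitrate (SD, n = 3 each). The share of FER2 was 1.40% ± 0.0955 on glutamate and 0.871% ± 0.114 on ammonium nitrate.

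Markers of leaf mesophyll and of root cells also differed between the groups. Beside the counts below, 71.8% of all tested genes passed, 35.0% higher and 36.8% lower on glutamate. The summed level of 4 mesophyll markers was 8490 to 9562 RPKM on glutamate and 16814 to 18043 RPKM on ammonium nitrate, with 3 of 4 lower and 1, LHCB3, not passing. Most of this sum came from RBCS1A, at 7644 RPKM on glutamate and 14599 RPKM on ammonium nitrate, named after its values were seen. The summed level of 3 root hair markers was 26.2 to 33.2 RPKM on glutamate and 9.53 to 17.9 RPKM on ammonium nitrate, with all 3 higher. The sum of 6 endodermis markers was 113 to 131 RPKM on glutamate and 65.6 to 93.9 RPKM on ammonium nitrate, with 4 higher, 1 lower and 1 not passing. The sum of 3 xylem markers was 47.8 to 56.2 RPKM on glutamate and 57.3 to 68.9 RPKM on ammonium nitrate, with 1 higher, 1 lower and 1 not passing. In whole seedlings, fewer cells of a type and less RNA per cell cannot be told apart. The part of these differences in the ferritin, NAS and OPT3 results was not tested either.

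In the TAIR10.1 annotation FER1 overlaps the antisense non-coding gene AT5G01595 over 1334 bases. That gene was at 6.69 ± 0.444 RPKM on glutamate and 9.34 ± 0.471 RPKM on ammonium nitrate (SD, n = 3 each), far below FER1. FER4 overlaps its neighbour AT2G40290 over 118 bases on the same strand, which was at 38.7 ± 1.51 RPKM on glutamate and 50.3 ± 0.0160 RPKM on ammonium nitrate. VIT1 and FER2 overlap a neighbour over 98 and 8 bases. The overlaps of FER1 and VIT1 are antisense, and whether counting used strand is not stated in the labels or files. Those of FER4 and FER2 are on the same strand, where strand could not separate the reads. Reads in all these overlaps therefore cannot be assigned with certainty.

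All 4 ferritin genes and OPT3 hold a G-box, CACGTG, in the 300 bases before the coding start, a palindrome, alike on both strands, that basic helix-loop-helix factors bind, among them those of the iron response. In 27443 genes, 6.28% of such windows held it, and none of the NAS genes or VIT1 did. The first base of the G-box lies 143 bases before the coding start in FER1 and FER2, 127 in FER3, 149 in FER4 and 151 in OPT3. The annotated gene starts 457, 174 and 272 bases before the coding start in FER1, FER2 and OPT3, so their G-boxes lie inside it. In FER3 and FER4 it starts 51 and 80 bases before the coding start, so their G-boxes lie before the annotated gene. These are genomic bases, and introns before the coding start and single transcript models were not checked. Binding to any of these G-boxes was not tested. The 4 ferritin genes fell and OPT3 rose on glutamate, and any part of the G-box in this was not tested. The 30 bases around the G-box are printed with its letters in capitals. In the order of the lines below they lie at chr5:229720-229749 (minus), chr3:3463496-3463525 (plus), chr3:20816094-20816123 (minus), chr2:16833346-16833375 (minus) and chr4:9250205-9250234 (minus) in TAIR10.1.
FER1: atatccaccctcCACGTGgatctcaatcca
FER2: ttctcctctttcCACGTGtccaacaaacag
FER3: atcgtatccatcCACGTGtcaacaatccac
FER4: atctcgtacgtaCACGTGtctctcatccgc
OPT3: gtgatagagcgaCACGTGgataaactaacg

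FER3 and FER4 have the closest coding sequences among the ferritins, at 79.3% identity against 70.5% to 72.0% for other pairs, and fell by 1.40 and 1.64 on the log2 scale. Their last 100 bases before the annotated start of the gene are shown for comparison, with the G-box in capitals, at chr3:20816036-20816135 (minus) and chr2:16833295-16833394 (minus) in TAIR10.1.
FER3: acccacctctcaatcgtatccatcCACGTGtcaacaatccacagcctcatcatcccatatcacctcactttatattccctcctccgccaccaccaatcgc
FER4: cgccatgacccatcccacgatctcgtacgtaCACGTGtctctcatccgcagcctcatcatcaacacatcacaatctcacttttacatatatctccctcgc

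FER1 alone among the 10 genes also holds a match to GNATATNC, the binding site of the phosphate starvation regulator PHR1, which is known to act on FER1. The match starts 227 bases before the coding start and lies inside the annotated gene, which starts 457 bases before the coding start. Whether PHR1 binds at this match was not tested. Of all 27443 windows, searched on both strands, 5.22% had such a match. For the other 9 genes this says only that these letters are not in their windows.

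**Figure D4:**
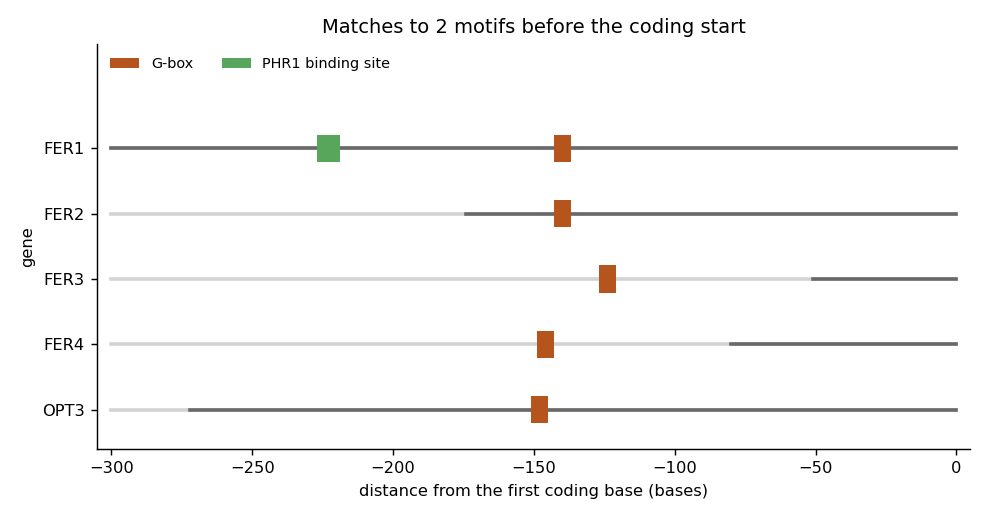
Matches to 2 motifs, the G-box and the PHR1 binding site, in the 300 bases before the first coding base of FER1 to FER4 and OPT3, with distance in bases on the horizontal axis. Dark lines mark the annotated gene and pale lines the sequence before it. The G-box lies 127 to 151 bases before the coding start in all 5 genes.

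Of 30 other genes of iron transport and chelation, 27 were tested, 10 were higher, 12 were lower and 5 did not pass. Their median log2 fold change was -0.05, beside -0.02 for all tested genes. The share that passed was 81.5%, where 71.8% of all genes passed. VTL5 (AT3G25190), a relative of VIT1 in the vacuolar iron transporter-like group, had 5.55, 5.19 and 4.27 RPKM on glutamate, against 56.4, 59.97 and 70.99 RPKM on ammonium nitrate. It was 12.5-fold lower on glutamate, with a log2 fold change of -3.40 ± 0.11 (SE, limma adjusted p = 1.13e-07). IREG3 (AT5G26820), a ferroportin-like protein of organelles, was 2.41-fold lower on glutamate, at 14.6 ± 0.770 RPKM on glutamate and 35.0 ± 2.22 RPKM on ammonium nitrate (SD, n = 3 each). YSL7 (AT1G65730), of the yellow stripe-like family whose best-known members carry metal-nicotianamine complexes, was at 5.74 ± 0.740 RPKM on glutamate and 1.04 ± 0.136 RPKM on ammonium nitrate, or 5.50-fold higher. Among all 8 genes of that family 4 were higher (YSL3, YSL4, YSL7 and YSL8), 3 were lower (YSL2, YSL5 and YSL6) and YSL1 did not pass. Of all tested genes 35.0% were higher and 36.8% lower. The others of the list that did not pass were FRD3, NRAMP3, FRO6 and AT1G07030, named like these YSL genes after their values were seen.

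The next genes were also picked after their values were seen. ZIF1 (AT5G13740), which moves nicotianamine into the vacuole, had 82.7, 95.7 and 77.2 RPKM on glutamate, against 25.9, 18.5 and 18.8 RPKM on ammonium nitrate, and was 4.05-fold higher (limma adjusted p = 4.07e-06). YSL3 (AT5G53550), which acts in leaf veins and in loading seeds with metals, was at 81.3 ± 3.33 RPKM on glutamate and 49.2 ± 1.21 RPKM on ammonium nitrate. NRAMP4 (AT5G67330), which releases iron from the vacuole, was 1.99-fold higher on glutamate. The relatives of VTL5 differed, since VTL2 (AT1G76800) was 3.94-fold lower and VTL1 (AT1G21140) 1.93-fold higher on glutamate.

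Among 20 regulators of iron status, 19 were tested, of which 13 were higher and 3 lower on glutamate and 3 did not pass. Their median log2 fold change was 0.97, and 84.2% of them passed, beside 71.8% of all tested genes. BTS (AT3G18290), an iron-binding ubiquitin ligase that restrains the iron deficiency response, had 54.9, 64.0 and 53.6 RPKM on glutamate, against 17.1, 14.3 and 11.7 RPKM on ammonium nitrate. It was 4.00-fold higher, with a log2 fold change of 1.94 ± 0.13 (SE, limma adjusted p = 3.58e-06). The other genes named by the rule were AT1G47395 and AT1G47400, both uncharacterized in the annotation used. They were at 226 ± 27.1 and 101 ± 8.85 RPKM on glutamate, against 9.56 ± 4.34 and 5.11 ± 3.17 RPKM on ammonium nitrate (SD, n = 3 each). For both, ammonium nitrate library 1 was the highest of its group, at 14.5 and 8.77 RPKM. PYE (AT3G47640), a repressor known to bind the NAS4 and ZIF1 genes, was at 24.1 ± 1.56 RPKM on glutamate and 11.2 ± 1.06 RPKM on ammonium nitrate and was picked after its values were seen, as were the genes that follow. Its partner ILR3 (AT5G54680) was at 90.0 ± 4.08 and 97.0 ± 2.64 RPKM on glutamate and ammonium nitrate and did not pass (limma adjusted p = 0.0834), like bHLH104 and bHLH34. The 3 lower regulators were FIT, which drives root iron uptake, bHLH121 and bHLH11.

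Of 11 genes that supply S-adenosylmethionine for nicotianamine or salvage the methylthio group left over from its synthesis, all were tested, 5 were higher, 4 were lower and 2 did not pass. Their median log2 fold change was -0.07, and 81.8% of them passed, beside 71.8% of all tested genes. Scaling to equal totals gave 5 higher, 3 lower and 3 that did not pass. ARD3 (AT2G26400), an acireductone dioxygenase of the salvage cycle, had 61.4, 66.5 and 62.1 RPKM on glutamate, against 3.19, 2.00 and 2.25 RPKM on ammonium nitrate. It was 25.5-fold higher, with a log2 fold change of 4.22 ± 0.12 (SE, limma adjusted p = 6.02e-08). The S-adenosylmethionine synthetase gene MAT3 (AT2G36880) was 1.66-fold higher, and the salvage gene DEP1 (AT5G53850) was 1.49-fold lower, on glutamate. Of the other salvage genes, picked after their values were seen, the kinase gene MTK was 1.30-fold and the dioxygenase gene ARD4 1.17-fold higher, while MTI1 and the nucleosidase genes MTN1 and MTN2 were 1.14-fold to 1.26-fold lower.

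**Figure D5:**
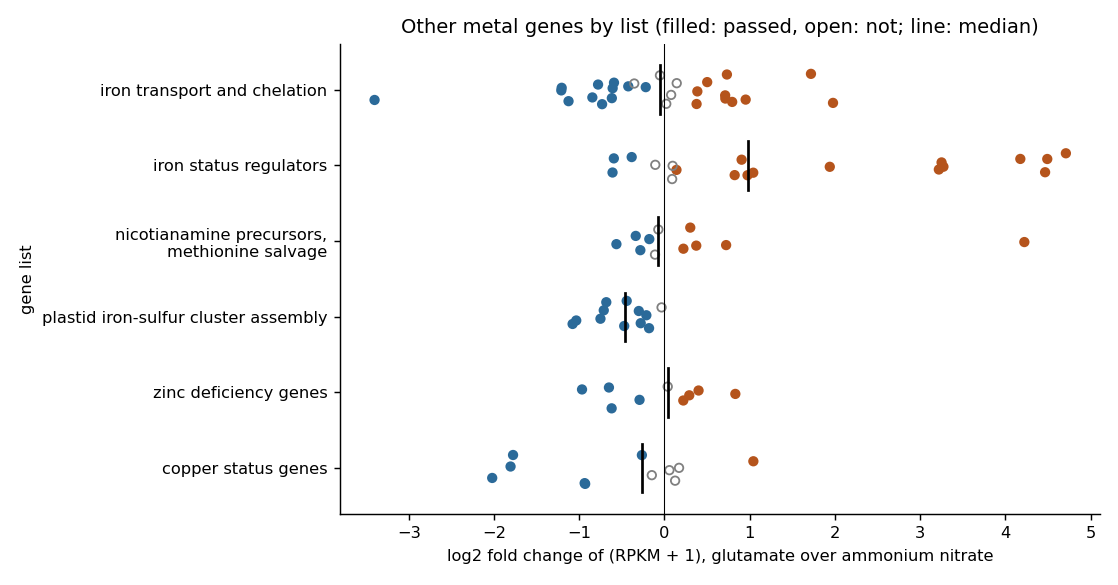
Log2 fold change of RPKM + 1, glutamate over ammonium nitrate, for the tested genes of 6 lists of metal genes, 1 point per gene. Orange points rose, blue points fell, open points did not pass the adjusted threshold of 0.05, and the black line is the median of each list, which is 0.97 for the regulators and -0.46 for plastid iron-sulfur cluster assembly.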

How the data were processed

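RNA of whole seedlings was sequenced from Illumina TruSeq libraries, per the labels' protocols. The authors deposited 1 table of RPKM, normalized by TMM according to its file name, with gene lengths and, per the file headers, a fraction of multiply mapped reads per gene. The submitters' processing notes name TAIR10 and SAMtools; which aligner and counter were used is not given. RPKM times length moved in whole-read steps above an added 0.5 read, within 0.05 read in 100% of genes without multiply mapped reads, which gave the read counts used here. Each library had 184 to 213 genes at 1 read and 577 to 672 at 2 reads, so mates may have been counted separately.

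From these values, log2(RPKM + 1) was tested two-sided in limma 3.58.1 (R 4.3.3) with a mean-variance trend, unpaired, for every gene that averaged 1 RPKM or more. Library groups and numbers follow the labels. Libraries of one group differed beyond counting noise (chi-square per degree of freedom 10.0 to 14.8), so each was counted as 1 sample. Alternatives were pseudocounts of 0.25 and 5 RPKM, no level filter or one of 5 RPKM, equal totals per library, no trend, a replicate block, limma-voom on the recovered reads, leaving out genes with multiply mapped reads, and leaving out each library.

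The members and lists were chosen with earlier results of these data known. Named genes were all members and, per list, the 3 with the smallest p whose groups did not overlap. RefSeq's TAIR10.1 table gave names to 32835 of 33602 identifiers (97.7%). Sequences and coordinates were read from RefSeq's TAIR10.1 genome and annotation; the deposited table holds no coordinates. Coding sequences were aligned with Biopython 1.88.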

Additional observations from a re-analysis of the deposited data

How the results depend on the processing

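All 9 tested members passed in the same direction under each of the 15 alternatives that kept them; with a mean of at least 5 RPKM, NAS2, NAS3 and FER2 were not tested and the other 6 passed. The log2 fold changes ranged from -5.13 to -2.80 for NAS1, 1.43 to 2.21 for NAS4, 1.77 to 2.01 for OPT3 and -1.56 to -1.39 for FER1, the outer values for NAS1 and NAS4 coming from the pseudocount of 5 RPKM and from limma-voom on recovered reads, which called 14413 genes. With equal totals per library the log2 ratio of the summed ferritins was -1.41, against -1.53 with TMM scaling; the median of all tested genes was 0.08, against -0.02, and 58.5% of calls, against 48.7%, were higher. All-gene calls were 13251 to 13975 when each library was left out, against 14390. With the replicate block 14194 genes, 9 members and 72 listed genes passed, against 14390, 9 and 73. The correlation of deviations between libraries of the same number was 0.105, 0.0481 and -0.0125. Glutamate replicates 1 and 2 correlated best with their own number, and glutamate replicate 3 with ammonium nitrate replicate 2. No label says that equal numbers share a plate, day or batch, so the numbers were not taken as pairs. Depth limits NAS1 on glutamate, FER2 and VIT1, with at most 107 reads per library.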

Other observations

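Genes of plastid iron-sulfur cluster assembly were lower on glutamate in 11 of 12 cases, with a median log2 fold change of -0.46, and none was higher; of all tested genes 36.8% were lower and the median was -0.02. With equal totals per library 9 were lower and 3 did not pass, where 29.9% of all tested genes were lower. ABCI8 (AT4G04770), a subunit of the scaffold complex on which the clusters are built, was at 20.05 ± 0.983 RPKM on glutamate and 43.4 ± 1.36 RPKM on ammonium nitrate (SD, n = 3 each), and its partner ABCI7 (AT1G32500) was at 23.8 ± 0.142 RPKM on glutamate and 40.8 ± 1.06 RPKM on ammonium nitrate. NFU3 (AT4G25910), which carries clusters to their targets, was 2.09-fold lower. The exception was CPISCA (AT1G10500), at 84.3 ± 2.59 and 86.4 ± 2.97 RPKM on glutamate and ammonium nitrate, named after its values were seen (limma adjusted p = 0.533). The leaf mesophyll markers were lower on glutamate as well, and their part in this was not tested.

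Zinc deficiency genes went both ways, since of 9 tested 4 rose, 4 fell and ZIP5 did not pass; the share that passed was 88.9%, beside 71.8% of all tested genes. ZIP1 (AT3G12750) was 1.95-fold higher, whereas the zinc transporter genes IRT3 (AT1G60960) and ZIP3 (AT2G32270) were 1.99-fold and 1.64-fold lower on glutamate. The others that rose were HMA4 and the regulators bZIP19 and bZIP23, and the others that fell were ZIP4 and HMA2. All of these were named after their values were seen. The log2 fold changes of bZIP19 and bZIP23 were 0.22 and 0.29. Of 11 genes of copper status, 1 was higher, 6 were lower and 4 did not pass, so 63.6% passed, under the 71.8% of all tested genes. The 4 that did not pass were CSD2, CCS, SPL7 and CCH, named after their values were seen. CSD2 was at 107 ± 36.0 RPKM on glutamate and 116 ± 11.1 RPKM on ammonium nitrate (SD, n = 3 each). CCS was at 58.9 ± 10.9 RPKM on glutamate and 51.8 ± 4.61 RPKM on ammonium nitrate. The iron superoxide dismutase FSD1 (AT4G25100), which is high when copper is scarce, was at 209 ± 26.5 RPKM on glutamate and 729.6 ± 45.4 RPKM on ammonium nitrate, and the copper and zinc superoxide dismutase CSD1 (AT1G08830) was at 376 ± 60.6 RPKM on glutamate and 180.3 ± 3.02 RPKM on ammonium nitrate. FRO4 (AT5G23980), a root copper reductase, was 8.05-fold lower on glutamate.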
